A study of Homo sapiens with 6 samples.

Results

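The 10 genes described here are PMP22, MTURN, ESAM, PDE3A, NRXN3, ADAMTS8, SP6, GALNT3, KIAA0040 and SH3PXD2B, out of 27722 genes with a name in the tables. They were chosen by their read counts in these same libraries, as genes higher in both PLDLS libraries than in each of the PLASS and empty vector (EV) libraries. Those differences are therefore given as a description with no test. All 10 passed the filter on low counts, which left 14631 genes. RNA came from MUTZ3, a human acute myelomonocytic leukaemia line with an inversion of chromosome 3 that was grown in αMEM with 20% FCS and 20% medium conditioned by 5637 cells and transduced with retrovirus. Cells were taken at 72 h in 3 groups of 2 libraries. The PLDLS group carried p50MX-3xFLAG-3xNLS-4xPLDLS-Zeo, a vector with 4 copies of a peptide that interferes with the interaction of the transcription factor EVI1 with the corepressor CTBP. The PLASS group carried p50MX-3xFLAG-3xNLS-4xPLASS-Zeo, whose peptide does not. In the EV group, replicate 1 carried p50MX-3xFLAG and replicate 2 carried p50MX-Zeo, so its libraries differ in vector as well as in number. The labels do not say that replicates are separate cultures, so p-values reflect only how far these libraries vary, and that variation could be technical.

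CTBP proteins are corepressors that bind short peptide motifs of the PLDLS kind in DNA-binding factors and bring in enzymes that remove activating marks from chromatin. EVI1 is such a factor, and in leukaemia with an inversion of chromosome 3 its gene is driven by a displaced enhancer. The products of the 10 genes are of different kinds, and a shared pathway was not tested. PMP22 and ESAM encode membrane proteins of cell contacts, NRXN3 a synaptic adhesion receptor, PDE3A an enzyme that breaks down cyclic AMP, ADAMTS8 a secreted metalloprotease, GALNT3 a Golgi glycosyltransferase, SH3PXD2B a scaffold of actin-rich podosomes, SP6 a zinc finger transcription factor, MTURN a protein linked to neural differentiation, and KIAA0040 a protein of unknown role.

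On GRCh38 the genes lie on 8 chromosomes. MTURN lies at chr7:30134986-30162762, PDE3A at chr12:20368537-20688583 and NRXN3 at chr14:78170373-79868291, all on the plus strand. On the minus strand lie PMP22 at chr17:15229779-15265326, SP6 at chr17:47844908-47876311, ESAM at chr11:124753126-124762290, ADAMTS8 at chr11:130404923-130428609, GALNT3 at chr2:165747588-165794692, KIAA0040 at chr1:175156986-175192987 and SH3PXD2B at chr5:172325181-172454525. In GENCODE, AC005703.6, AC007036.3 and the antisense gene AC129102.1 share exon bases with PMP22, MTURN and PDE3A. They were not in the count tables, and their reads cannot be told apart from those of the named genes.

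Total estimated reads ranged from 5582078 in PLDLS replicate 2 to 35800826 in EV replicate 1. Of 14 markers of the labelled cell type, 13 reached 1 count per 1000000 reads (CPM, scaled by the TMM factors of edgeR) in some library, while ELANE was at or below 0.568 CPM in all 6. CD14, PRTN3 and AZU1 were low as well, with highest levels of 2.11, 1.14 and 2.35 CPM. The 11 neuron markers summed to between 0.553 and 1.87 CPM, with MAP2, STMN2, NEFL and GAP43 at 0. The 12 endothelial markers, with KDR at 0, summed to 274 and 248.5 CPM in PLDLS, 302 and 251 in PLASS and 339 and 273 in EV. Of the Schwann cell and glia markers CDH19 was at 0, and the sum of that list, 260 and 269 CPM in PLDLS against 186 to 258 in the controls, lay mostly in MBP. The 15 megakaryocyte markers summed to 170 and 227 CPM in PLDLS, 130 and 148 in PLASS and 165 and 132 in EV, mostly from ITGA2B, with PF4 at 0. Both PLDLS libraries thus lay above all controls for the sums of the glial and megakaryocyte lists, by little, and not for those of the neuron and endothelial lists. The part of these markers in the levels below was not tested. In bulk RNA, a change in the number of cells of a type and a change in RNA per cell cannot be told apart.

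The promoter sequences of 2 of the genes are shown because one marks the NRXN3 start that the reads pointed to and the other was the SH3PXD2B window richest in SP/KLF-type matches. They come from RefSeq (GRCh38.p14), 5′ to 3′ on the gene's strand, with motif matches in capitals. The first NRXN3 window lies at chr14:79279130-79279338 on the plus strand and ends just before the first exon of NM_001272020, and the second, at chr14:78403469-78403718, lies before the start 876 kb upstream. The SH3PXD2B window lies at chr5:172454526-172454775 on the minus strand.
NRXN3 internal start: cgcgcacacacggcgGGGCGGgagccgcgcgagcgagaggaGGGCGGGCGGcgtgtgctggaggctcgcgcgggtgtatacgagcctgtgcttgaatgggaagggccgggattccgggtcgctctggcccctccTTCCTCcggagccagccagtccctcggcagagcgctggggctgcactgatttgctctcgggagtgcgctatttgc
NRXN3 upstream start: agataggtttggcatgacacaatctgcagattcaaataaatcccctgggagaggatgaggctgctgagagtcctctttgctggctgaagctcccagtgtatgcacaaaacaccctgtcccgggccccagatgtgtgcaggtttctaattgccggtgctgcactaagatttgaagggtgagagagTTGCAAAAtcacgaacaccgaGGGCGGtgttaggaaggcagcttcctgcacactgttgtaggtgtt
SH3PXD2B start: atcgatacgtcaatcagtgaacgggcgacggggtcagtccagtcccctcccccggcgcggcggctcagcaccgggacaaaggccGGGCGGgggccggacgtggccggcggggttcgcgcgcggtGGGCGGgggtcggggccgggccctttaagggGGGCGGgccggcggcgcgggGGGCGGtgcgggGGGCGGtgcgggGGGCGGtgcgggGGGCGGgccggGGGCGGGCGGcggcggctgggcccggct

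The SP/KLF-type motif GGGCGG, searched on both strands with overlapping matches counted, occurred 9 times in the SH3PXD2B window and 3 times before the internal NRXN3 start. Capitals in TTCCTC mark the ETS-type motif GAGGAA on the other strand, and those in TTGCAAAA the C/EBP-type motif TTGCNNAA. RefSeq windows of 250 bases were found for 7 of the 10 genes, 11 windows in all, with none used for ESAM, ADAMTS8 and SP6. The only PDE3A window, at chr12:20571829-20572078, lies inside the gene and overlaps PDE3A exon bases. The start of NM_000921, which held most PDE3A reads, was not placed here, so this window may not be its promoter. GGGCGG was present in 8 of the 11 windows, from 6 of the 7 genes, and in 42.6% of the 35116 promoters in the table. GC content ran from 36.4% in the PDE3A window to 82.8% in that of SH3PXD2B, and NRXN3 and PMP22 gave several windows each. The shares were not matched for GC content, so no excess is read from them. The other motifs were rarer, and their letters were found in few or none of these windows. GACAAGATA and GAAGATGAG, motifs of the first and second finger domains of EVI1, were found in 0 of the 11 windows and in 0.0854% and 0.265% of all promoters. The GATA-type motif AGATAA (9.17% of all promoters), the RUNX-type TGTGGT (11%) and the KLF-type CCACACCC (2.97%) were found in none of the 11. GAGGAA (23.6%) was in windows of GALNT3 and NRXN3, TTGCNNAA (9.05%) in windows of NRXN3, and the E-box CACCTG (17.5%) in that of GALNT3.

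All 10 genes stood several-fold higher with PLDLS than in the controls, and the size of the gap differed between them. The lower PLDLS library stood 2.78 times (PDE3A) to 6.72 times (ADAMTS8) above the highest of the 4 control libraries. Of all 14631 genes tested, 1459 (9.97%) had both PLDLS libraries above every control library, and 99 (0.677%) had a gap of at least 2 times. Ranked by that gap among the 1459, the 10 genes took places 8 to 47. At the edge of the rule itself the gap was 1.0006 times for IGFBP4, just inside, and 0.99996 times for MIR646HG, just outside. Within libraries of the same replicate number, the ratio of PLDLS to PLASS had a median over the 10 genes of 4.41 for number 1 and 4.26 for number 2, and the ratio of PLDLS to EV one of 6.30 and 6.84. The corresponding ratio of PLASS to EV had medians of 1.06 and 1.18. The last ratio shares its control libraries with the others.

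**Figure D1:**
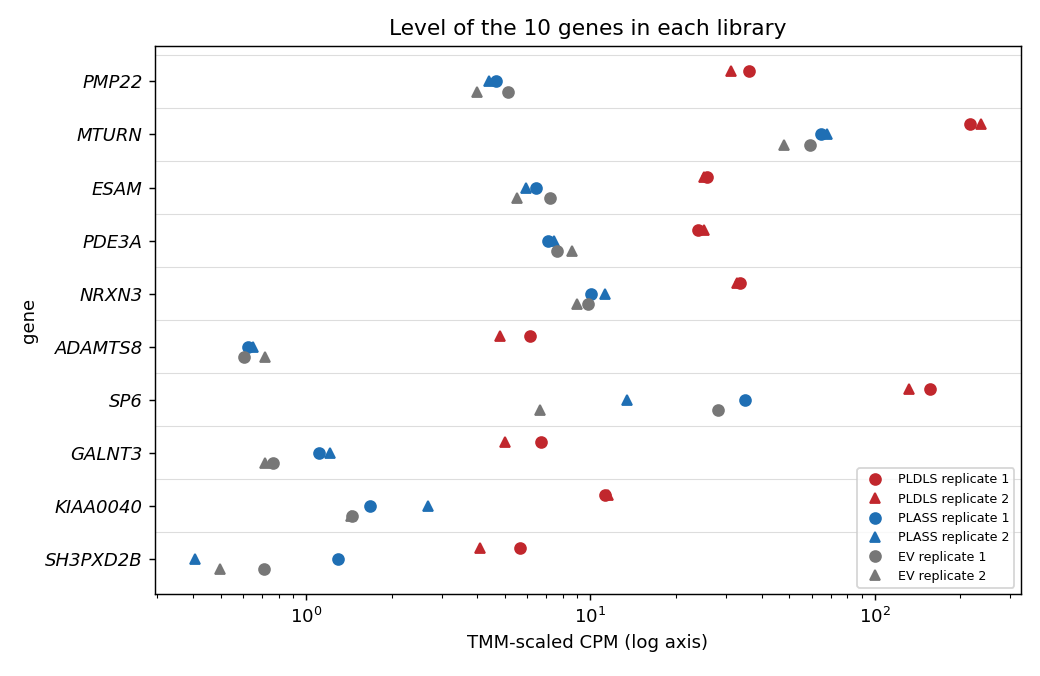
TMM-scaled CPM (log axis) of the 10 genes in each of the 6 libraries, with colours for the groups and shapes for the replicate numbers. Both PLDLS points lie to the right of all 4 control points for each gene, as the choice of genes required, and the SP6 controls spread from 6.63 to 34.9 CPM.

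PMP22 encodes peripheral myelin protein 22, a membrane-spanning protein that is abundant in compact myelin and also found at junctions of epithelial cells. It had 36 and 31.2 CPM in PLDLS replicates 1 and 2, 4.66 and 4.38 CPM in PLASS, and 5.11 and 3.98 CPM in EV. The 4 control libraries lay close together and both PLDLS libraries far above them. The ratio to PLASS was 7.72 for number 1 and 7.12 for number 2, and the ratio to EV 7.05 and 7.84. The transcript NM_153322 held 94.7% to 100% of its estimated reads in every library.

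ESAM encodes an immunoglobulin-like adhesion molecule of endothelial cells, platelets and blood stem cells. It stood at 25.6 and 25.1 CPM in PLDLS, 6.44 and 5.92 in PLASS and 7.22 and 5.53 in EV. All 4 control libraries lay far below the PLDLS libraries, at 6.18 ± 0.369 CPM (SD, n = 2) in PLASS and 6.37 ± 1.19 in EV against 25.3 ± 0.416. NRXN3, a presynaptic receptor that binds partners across the synapse, had 33.6 and 32.7 CPM in PLDLS, 10.1 and 11.3 in PLASS and 9.77 and 8.95 in EV. Its ratio of PLDLS to PLASS, 3.34 for number 1 and 2.90 for number 2, was among the lowest of the 10.

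PDE3A encodes a phosphodiesterase of heart, vessels and platelets that hydrolyses cyclic AMP and is inhibited by cyclic GMP. It had the smallest gap, with 24 and 25.1 CPM in PLDLS, 7.07 and 7.46 in PLASS and 7.61 and 8.62 in EV. MTURN had the most reads of the 10, at 215.5 and 237 CPM in PLDLS, 64.5 and 67.9 in PLASS and 59 and 47.9 in EV. For both genes the libraries of a group lay close together. The ratios of PLDLS to a control library of the same number were 2.91 to 3.39 for PDE3A and 3.34 to 4.95 for MTURN.

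ADAMTS8, a secreted protease of the extracellular matrix, had the widest gap. Its level was 6.11 and 4.82 CPM in PLDLS, 0.625 and 0.649 in PLASS and 0.606 and 0.718 in EV. The control values rested on 13, 8, 23 and 13 reads in PLASS replicates 1 and 2 and EV replicates 1 and 2. The exact Poisson 95% interval of the lower PLDLS library, 3.15 to 7.07 CPM from 26 reads, lay above those of the controls, whose upper bounds ranged from 0.909 to 1.28 CPM. Such intervals cover counting error only. The gene was chosen for this gap, so the separation of the intervals is a description and no test. SH3PXD2B, also called TKS4, organises podosomes, the actin-rich feet with which cells break down matrix. It had 5.63 and 4.08 CPM in PLDLS, 1.30 and 0.406 in PLASS and 0.711 and 0.497 in EV. PLASS replicate 2 rested on 5 reads, with an interval of 0.132 to 0.946 CPM, so that the ratio of 10.1 for number 2 is less precise than the 4.34 for number 1.

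GALNT3 starts mucin-type O-glycosylation by adding N-acetylgalactosamine to serine and threonine, and is known for its action on the hormone FGF23. Its level was 6.71 and 5.01 CPM in PLDLS, 1.11 and 1.22 in PLASS and 0.764 and 0.718 in EV. KIAA0040 had 11.3 and 11.5 CPM in PLDLS, 1.68 and 2.68 in PLASS and 1.45 and 1.44 in EV. In both genes the PLASS libraries stood above the EV libraries, without reaching PLDLS. The ratio of PLDLS to EV was accordingly larger than that to PLASS, at 8.79 and 6.98 against 6.07 and 4.12 for GALNT3 and 7.78 and 8.01 against 6.69 and 4.30 for KIAA0040.

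SP6, also known as epiprofin and needed for tooth and hair formation, was the least even of the 10 among the controls. It had 156.5 and 131.9 CPM in PLDLS, 34.9 and 13.5 in PLASS and 28.2 and 6.63 in EV. Replicate 2 was the lower library in each of the 3 groups, and the step was small in PLDLS and large in the controls. The ratio of replicate 2 to replicate 1 was 0.843 in PLDLS, 0.386 in PLASS and 0.236 in EV. The ratio of PLDLS to EV was therefore 5.56 for number 1 and 19.9 for number 2, the widest spread of any of the genes.

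**Figure D2:**
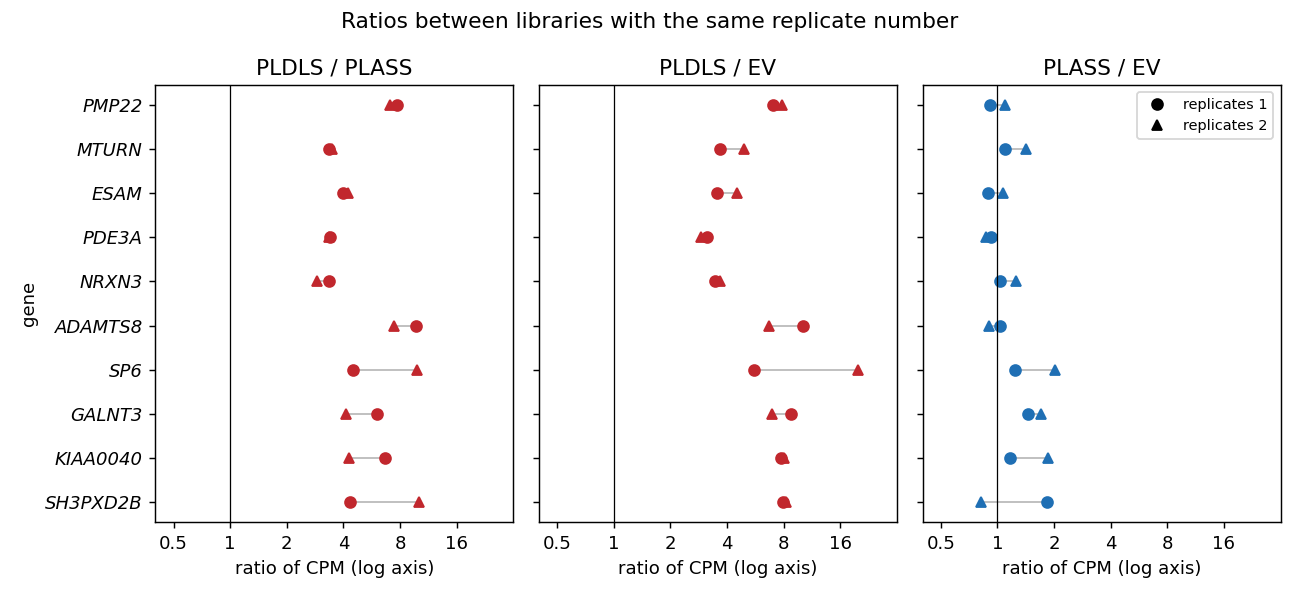
Ratios of CPM (log axis) between libraries with the same replicate number, for PLDLS over PLASS, PLDLS over EV and PLASS over EV, with a line at 1. Ratios with PLDLS run from 2.90 for NRXN3 to 19.9 for SP6, and those of PLASS over EV from 0.816 for SH3PXD2B to 2.03 for SP6.

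Levels of different genes were compared per transcript length, as the sum of the deposited TPM values of a gene's transcripts. In PLDLS the mean TPM fell in the order MTURN 103.5, SP6 87.8, PMP22 54.4, ESAM 36.2, NRXN3 9.51, PDE3A 9.02, KIAA0040 6.05, GALNT3 5.24, ADAMTS8 3.44 and SH3PXD2B 1.36. Of neighbours in this order, the values of MTURN (98 and 109) and SP6 (100.4 and 75.1) overlapped, and those of NRXN3 (9.46 and 9.56) and PDE3A (8.89 and 9.15) lay close without overlap. In the controls the order was led by MTURN, with mean TPM of 29.5 in PLASS and 24.8 in EV, while SP6 stood at 15.1 and 11.5. PMP22 and ESAM were near each other without PLDLS, at 7.17 and 8.97 TPM in PLASS, and apart with it.

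PLASS was also compared with EV. The choice of the 10 genes read these control libraries too, and a gene with 1 control group well above the other was less likely to be chosen. The values below are therefore a description, and nothing about the inactive peptide is read from the count. With edgeR's quasi-likelihood test, 0 of the 10 were called at an adjusted p (Benjamini-Hochberg) under 0.05, 0 of the 10 had an unadjusted p under 0.05, and all 10 adjusted p were 1. Over all genes 0 (0%) were called and 0.690% had an unadjusted p under 0.05. DESeq2 and limma-voom also called 0 of the 10. Estimated log2 fold changes ran from -0.16 ± 0.233 for PDE3A to 0.63 ± 0.408 for GALNT3 (± standard error). With the replicate number as a block, which removes a shift common to libraries of the same number, 0 of the 10 were again called, beside 0.0137% of all genes. The exception among the alternatives was SP6 with the block and without EV replicate 1, at log2 1.42 and an adjusted p of 0.0192, where 559 genes were called in all. On simulated counts this comparison recovered 2% of 2-fold and 65% of 4-fold changes, and 69% and 100% with the block, so a change of 2-fold would mostly have been missed without the block. The changed genes were drawn from those above a floor of mean level, and each gene's shift between the numbers was equal in all groups. Recovery for genes below that floor was not simulated.

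Replicate 2 was compared with replicate 1 within groups. The choice used every library, so that a gene with a large shift between the numbers was less likely to be chosen, and nothing is read from the number of genes called. SP6 was the only one of the 10 called, at log2 -1.17 ± 0.287 with an adjusted p of 0.0280 in edgeR's quasi-likelihood test, beside 17.5% of all genes. It was lower in replicate 2 in 3 of 3 groups, and its adjusted p ranged from 0.000373 to 0.0411 over the alternatives. SH3PXD2B had log2 -0.75 ± 0.326, an unadjusted p of 0.0470 and an adjusted p of 0.131, and the other 8 had adjusted p between 0.309 and 0.985. Without either EV library the SP6 difference was log2 -0.73 or -0.72, and without either PLDLS library -1.72 or -1.70. In the EV group the number coincides with the vector, and their effects cannot be told apart there.

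The share of each gene's reads by transcript did not enter the choice of genes. MTURN, ESAM, ADAMTS8 and GALNT3 had 1 transcript each in the tables. For SP6, NM_199262 held 86% to 100% of reads, and NM_001258248, which starts 4.68 kb away, held the rest. In PDE3A all reads were assigned to NM_000921 in 5 libraries, while PLDLS replicate 1 had 18.1% on NM_001244683. KIAA0040 was split over 6 transcripts without a pattern by group, its leading transcript NM_014656 ranging from 0% to 100% of reads across libraries.

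Neurexin genes are transcribed from an upstream start that gives the long alpha form and an internal start that gives the short beta form. In NRXN3, 4 transcripts starting within 1 kb of the internal position shown above held 97.7% to 100% of reads in each library, and NM_004796, which starts at the upstream position, held 0.161% over all 6. The long transcript NR_158975, whose start was not placed here, held 0.603% over all 6, with 0.703% and 2.27% in PLDLS. NM_001272020 alone held 68.3% and 84.3% in PLDLS, 60.5% and 53.8% in PLASS and 59.6% and 38.4% in EV, so it was highest in PLDLS, with NR_073546 holding most of the rest. With all 6 libraries, the share test of edgeR (diffSpliceDGE) covered transcripts of KIAA0040, NRXN3 and SP6 only, so the shares of PDE3A were not tested. It called 0 of these transcripts for PLDLS against PLASS, without or with the block. Over all genes it called 11 (0.0451%) of 24402 transcripts without the block. On simulated data it recovered 49.5% of 16-fold changes in minor transcripts, so smaller shifts in share would mostly go unseen. The changed transcripts were drawn from those above a floor of reads and with spread below the median. Recovery for transcripts with fewer reads or more spread was not simulated.

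**Figure D3:**
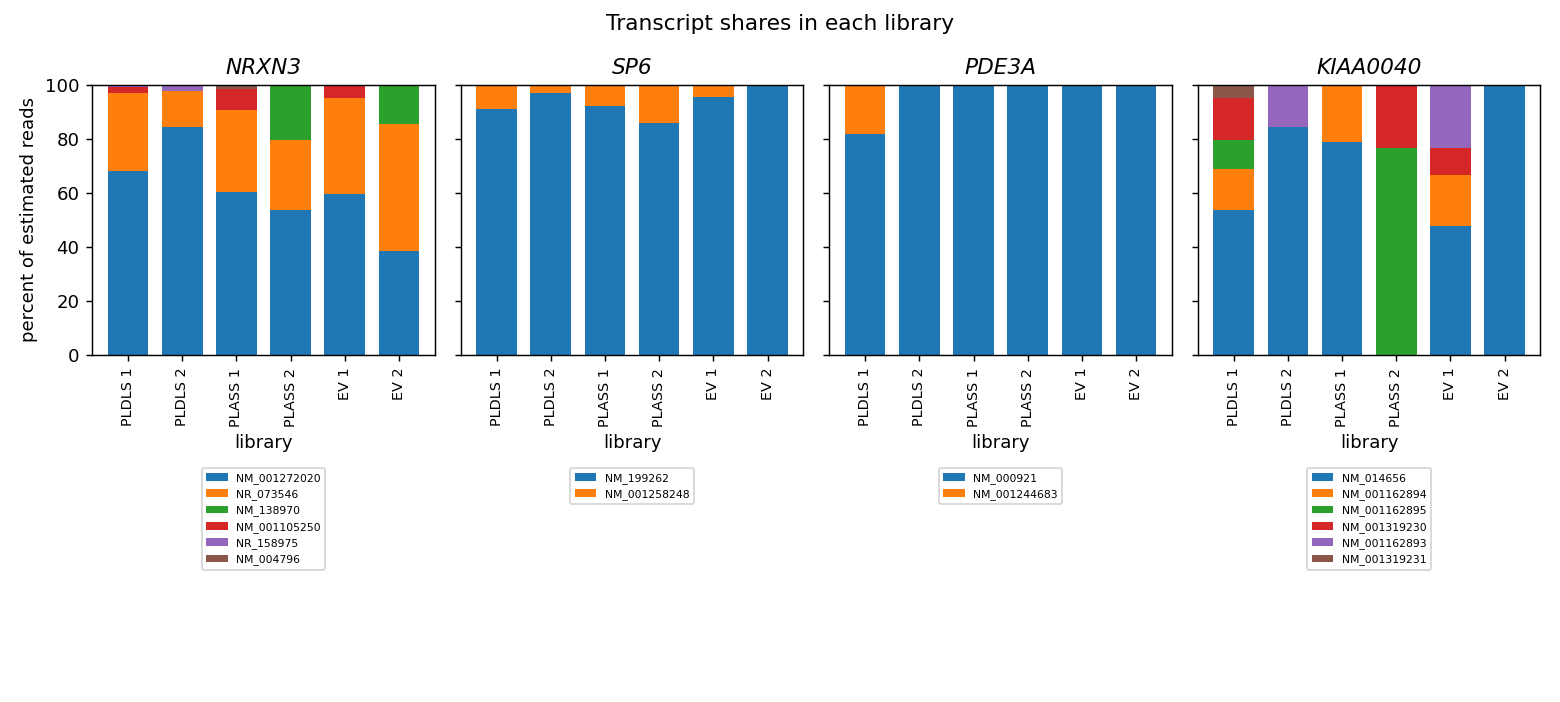
Percent of a gene's estimated reads on each RefSeq transcript in the 6 libraries, for the 4 genes whose reads are split most. NM_001272020 of NRXN3 takes 68.3% and 84.3% in PLDLS against 38.4% to 60.5% in the controls, while KIAA0040 shares follow no group.

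Genes beside the 10 were compared to see whether the rise extended to the surrounding region. The nearest tested gene on each side gave 20 neighbours. Between lower coordinates they lay from 5.65 kb (VSIG2, beside ESAM) to 2307 kb (CEP128, beside NRXN3) away, so not all are close. Of the 20, 3 had both PLDLS libraries above all controls, beside 9.97% of all genes. With the replicate block, 0 of the 20 were called for PLDLS against PLASS, beside 1.52% of all genes called higher and 0.513% lower. Against EV 2 were called higher, beside 3.24% of all genes higher and 1.00% lower. Without the block 0 were called in each. Both called genes flank ESAM on chromosome 11. VSIG2, which encodes another immunoglobulin-domain membrane protein, had 6.35 and 2.97 CPM in PLDLS, 1.11 and 1.70 in PLASS and 1.66 and 0.884 in EV. Its log2 fold change with the block was 1.89 ± 0.394 against EV (adjusted p = 0.0325) with an adjusted p of 0.0826 against PLASS. ESAM-AS1, transcribed opposite to ESAM and overlapping it, had 2.81 and 2.23 CPM in PLDLS, 0.769 and 0.811 in PLASS and 0.737 and 0.553 in EV. In GENCODE no other gene shares exon bases with ESAM, but overlap with the RefSeq exons of ESAM-AS1 was not checked. The libraries were not stranded, so ESAM reads may enter the ESAM-AS1 count, and their part in its rise was not tested. The counts of VSIG2 and ESAM-AS1 were small. Both are low, with 16 and 12 reads in PLDLS replicate 2, and both lost the call against EV without PLDLS replicate 1 (adjusted p = 0.416 and 0.233) and without EV replicate 2 (0.0514 and 0.0533). ESAM-AS1 also lost it without PLDLS replicate 2 (0.0512) and with DESeq2 and the block (0.119).

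All tested genes within 200 kb of each of the 10 genes were then compared, by the distance between lower gene coordinates. This window was chosen after the values of the neighbours were seen, and some neighbours lie beyond it. It held 29 tested genes, of which 7 had both PLDLS libraries above all controls, beside 9.97% of all genes. With the block, 1 was called higher for PLDLS against PLASS, beside 1.52% of all genes, and 4 against EV, beside 3.24%, all 5 calls in genes near ESAM, and 0 were called lower. NRGN, the calmodulin-binding protein neurogranin of neurons and platelets, lies 13.2 kb from ESAM. It had 44 and 33.6 CPM in PLDLS, 16.1 and 14.3 in PLASS and 15.5 and 11.8 in EV. Its log2 fold change with the block was 1.35 against PLASS (adjusted p = 0.00853) and 1.51 against EV (adjusted p = 0.00271), and without the block its adjusted p were 0.210 and 0.111. It lost the call against PLASS without PLASS replicate 1 (adjusted p = 0.0707). SIAE, an acetylesterase that acts on sialic acids, lies 120 kb from ESAM and had 21.8 and 19.1 CPM in PLDLS, 12.3 and 11.4 in PLASS and 13.4 and 10.4 in EV. It was called against EV with the block (log2 0.78, adjusted p = 0.0411) and lost the call without any library but EV replicate 1, its adjusted p then lying between 0.0534 and 0.225, and with DESeq2 and the block (0.0596). Among these genes, TBRG1, SPA17 and MSANTD2 were not called, at log2 0.03, 0.41 and -0.16 against PLASS, and SPA17 lies between SIAE and NRGN. For the other 9 genes the window held between 0 and 11 tested genes and none was called. It held 0 for PMP22, PDE3A and NRXN3, whose surroundings were thus not covered. Of the 7 genes with both PLDLS libraries above all controls, 4 lay near ESAM, 1 near SP6 and 2 near SH3PXD2B. LRRC46, near SP6, had log2 1.57 against PLASS and 1.65 against EV with the block. UBTD2 and LOC100288254, near SH3PXD2B, had 0.16 and 0.21 against PLASS and 0.14 and 0.44 against EV.

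**Figure D4:**
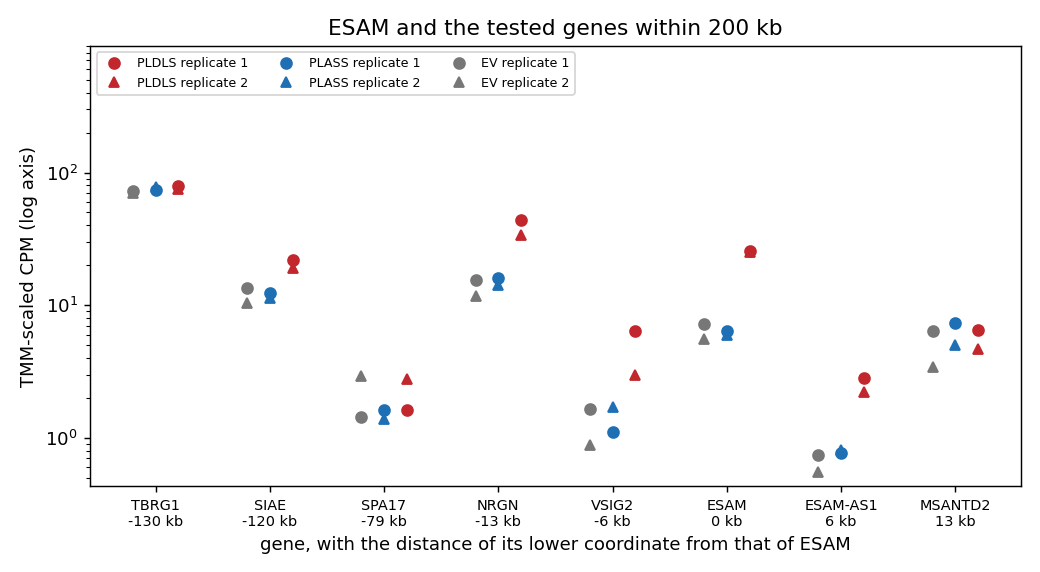
TMM-scaled CPM (log axis) of ESAM and the 7 tested genes whose lower coordinate lies within 200 kb of its own, in order along the chromosome. PLDLS points lie above all control points for SIAE, NRGN, VSIG2, ESAM and ESAM-AS1, and not for TBRG1, SPA17 and MSANTD2.

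Relatives and partners of the 10 genes were examined through 9 lists with 117 tested genes, which do not hold the 10 genes themselves. Without the block, edgeR called 0 of the 117 in either comparison. At an unadjusted p under 0.05 there were 15 for PLDLS against PLASS, beside 4.93% of all genes, and 24 for PLDLS against EV, beside 7.16%. DESeq2 called 0 and 10 of them, and limma-voom 0 and 0. With the block, 7 were called higher and 2 lower against PLASS, beside 1.52% and 0.513% of all genes, and 15 higher and 2 lower against EV, beside 3.24% and 1.00%. Both comparisons share the PLDLS libraries. Of the 17 genes, 16 are described below with values from the fit with the block. Of their calls against EV, 6 of 17 held under every alternative run with the block, those of EMP1, NDRG1, ADAMTS7, SP8, KLF10 and GALNT4, and 0 of the 9 calls against PLASS did.

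Among 22 tested podosome and invadopodium genes, the surroundings in which SH3PXD2B acts, 3 were called higher against PLASS and 4 against EV, with 0 lower. The median log2 fold change of the list was 0.11 against PLASS and 0.15 against EV, beside -0.01 and -0.02 for all genes. SH3PXD2A, the closest relative of SH3PXD2B and known as TKS5, had 222 and 137.5 CPM in PLDLS, 155 and 65.9 in PLASS and 158 and 73 in EV. Its groups overlap, and PLDLS was higher within each replicate number, at log2 0.78 against PLASS (adjusted p = 0.0413) and 0.70 against EV (adjusted p = 0.0387). MMP2, a gelatin-degrading protease, had 45.8 and 78.5 CPM in PLDLS, 26.5 and 36.3 in PLASS and 24.4 and 26.6 in EV, with log2 fold changes of 0.95 and 1.23. ADAM15, a membrane-bound protease, had log2 fold changes of 0.81 and 0.82 and no overlap between PLDLS and the controls. MMP14, the membrane-anchored activator of MMP2, was called against EV at log2 1.36 (adjusted p = 0.0181) and had 1.03 against PLASS, on levels of 1.55 to 10.6 CPM with overlap between groups. Leaving out 1 library ended these calls in some cases. Against PLASS the adjusted p without PLASS replicate 1 was 0.108 for SH3PXD2A, 0.216 for MMP2 and 0.324 for ADAM15. Without PLASS replicate 2 it was 0.422, 0.141 and 0.147, and without PLDLS replicate 2 0.291, 0.290 and 0.252, and ADAM15 had 0.0651 without PLDLS replicate 1. Against EV the adjusted p without PLDLS replicate 2 was 0.371 for SH3PXD2A, 0.0581 for MMP2, 0.172 for ADAM15 and 0.0647 for MMP14. MMP14 had 0.102 without PLDLS replicate 1 and SH3PXD2A 0.0705 without EV replicate 2.

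Of 10 tested relatives of ESAM in the junctional adhesion family and of tight junction partners, 1 was called higher and 1 lower against PLASS, and 3 higher and 1 lower against EV. The median was log2 0.10 and 0.20, beside -0.01 and -0.02 for all genes. JAM3 (JAM-C) rose to 327 and 262 CPM in PLDLS, from 142 and 187 in PLASS and 124 and 140.5 in EV, at log2 0.85 and 1.17. F11R (JAM-A) rose against EV at log2 0.83 and had 0.64 against PLASS, with 135 and 138 CPM in PLDLS and 70.2 to 88.5 in the controls. TJP3 (ZO-3) fell by 2.75 on the log2 scale against PLASS and by 2.34 against EV, on 7 and 1 reads in PLDLS and 14 to 81 in the controls. Against PLASS, JAM3 had an adjusted p of 0.570 without PLASS replicate 1 and 0.336 without PLDLS replicate 1, and TJP3 had 0.284 and 0.399. Against EV and without PLDLS replicate 1 the adjusted p was 0.0588 for JAM3 and 0.390 for TJP3, and without PLDLS replicate 2 it was 0.0758 for F11R. With DESeq2 and the block TJP3 had 0.0890 and 0.146.

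In the PMP22 and EMP family, 1 of 6 tested genes was called, against EV, and 0 against PLASS. The list's median was log2 0.30 against PLASS and 0.34 against EV. EMP1, which encodes epithelial membrane protein 1 of the PMP22 family, had 440 and 504 CPM in PLDLS, 204 and 465 in PLASS and 136.5 and 169 in EV. It stood at log2 1.64 ± 0.226 against EV (adjusted p = 0.00633) and 0.59 against PLASS, with PLASS replicate 2 close to PLDLS. Of 11 tested myelin and Schwann cell genes, NDRG1 was the one called, higher in both comparisons, at log2 0.85 and 1.34. NDRG1 is needed for the upkeep of peripheral myelin and is also a widely expressed stress-response gene. It had 131 and 170 CPM in PLDLS against 49.2 to 113 in the controls, and its call against PLASS was lost without PLASS replicate 1 (adjusted p = 0.475) and without PLDLS replicate 1 (0.207). The median of the myelin list was log2 0.16 and 0.38.

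Among 9 tested ADAMTS and ADAMTS-like genes, ADAMTS7 was higher in both comparisons and ADAMTSL4 against EV. ADAMTS7, a matrix protease studied in vessel walls, had 51.3 and 42.3 CPM in PLDLS, 22.3 and 18 in PLASS and 20.8 and 10.3 in EV, at log2 1.22 and 1.63. Its call against PLASS was lost without PLASS replicate 1 (adjusted p = 0.194) and without PLDLS replicate 2 (0.137), and that of ADAMTSL4 against EV (log2 1.06) without PLDLS replicate 2 (0.191). The list's median was log2 -0.02 against PLASS and -0.07 against EV. Of 14 tested genes of mucin-type O-glycosylation, GALNT4 was the one called, at log2 0.88 and 1.14. It had 135 and 81.6 CPM in PLDLS, 64.9 and 50.3 in PLASS and 64.2 and 35.1 in EV. Against PLASS its adjusted p was 0.474 without PLASS replicate 1, 0.177 without PLDLS replicate 1 and 0.0891 without PLDLS replicate 2. The median of that list was log2 0.17 and 0.18.

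SP and KLF factors, the zinc finger family of SP6, moved in both directions among 19 tested genes. SP8 fell by 1.10 on the log2 scale against PLASS (adjusted p = 0.0249) and fell by 1.77 against EV (adjusted p = 0.00255). Its levels were 9.16 and 6.87 CPM in PLDLS, 20.8 and 13.3 in PLASS and 34.2 and 20.5 in EV, so PLDLS was below every control library. KLF6, KLF10 and KLF13 were called higher against EV, at log2 0.84, 1.22 and 0.87, and had 0.47, 0.13 and 0.35 against PLASS. In the comparison with PLASS, SP8 lost the call without any one PLASS or PLDLS library, its adjusted p then lying between 0.0619 and 0.289. Against EV, KLF6 lost it without PLDLS replicate 1 (adjusted p = 0.368) and without EV replicate 2 (0.0555), and KLF13 without PLDLS replicate 1 (0.101), PLDLS replicate 2 (0.197) and EV replicate 2 (0.0701). The list's median was log2 -0.05 against PLASS and 0.23 against EV.

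Of 19 tested phosphodiesterases and PDE3A partners, and of 7 tested neurexins, ligands and partners, 0 were called with the block. Without the block, 1 gene of each list had an unadjusted p under 0.05 in each comparison. Over all genes the share was 4.93% against PLASS and 7.16% against EV. With the block, the smallest p of these lists belonged to PDE9A, at log2 0.59 against PLASS (adjusted p = 0.138), and to NLGN2, a postsynaptic partner of neurexins, at log2 -1.20 against EV (adjusted p = 0.0544). The medians were log2 0.01 and -0.08 for phosphodiesterases and -0.22 and -0.35 for neurexins.

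**Figure D5:**
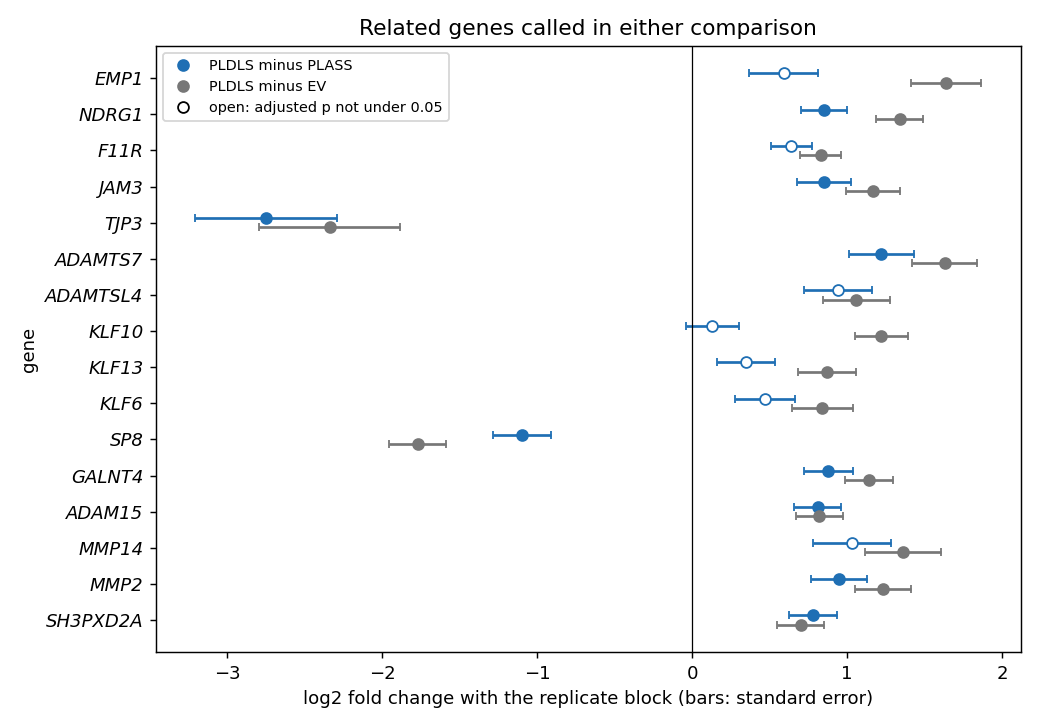
Log2 fold changes with the replicate block and their standard errors for 16 of the 17 related genes called in at least 1 comparison, with open points where the adjusted p was not under 0.05. All but TJP3 and SP8 lie to the right of 0, and KLF10 has 0.13 against PLASS and 1.22 against EV.

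The tested genes whose pattern over the 6 libraries was most like the mean of the 10, by Pearson's r of log2 CPM, were SNRK (0.998), LINC02458 (0.997), SH3RF2 (0.994), IL9R (0.993) and PTPN5 (0.992). All points share the same 6 libraries, and the values are a description. SNRK, a kinase of the SNF1 family, had 194 and 183 CPM in PLDLS and 99.3 to 109.5 in the controls. IL9R, the receptor subunit for interleukin 9, had 30.1 and 35.4 CPM in PLDLS and 9.17 to 11.1 in the controls. PTPN5, a tyrosine phosphatase of neurons, had 5.15 and 4.27 CPM against 0.843 to 1.05. LINC02458 had 2.34 and 1.86 CPM in PLDLS and 0.276 to 0.395 in the controls, and SH3RF2 1.38 and 1.48 against 0.105 to 0.162. Genes so low in the controls can pass the filter on low counts through PLDLS alone, which favours a high r for them. Correlation of each of the 10 genes with the mean of the other 9 ran from 0.907 for SP6 to 0.996 for PMP22, which the choice of the genes favours.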

How the data were processed

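Poly-A RNA of MUTZ3 was sequenced without strand information in 6 libraries, with 2 each of PLDLS, PLASS and EV. Reads were handled by the authors with bcl2fastq 1.8.4 and quantified with Salmon 0.3.1, and the build was hg38, per the submitters' processing notes. The deposited estimated counts are Salmon's reads per RefSeq transcript, not normalized, and the deposited TPM values are scaled to transcript length and depth, per the file headers. The deposited effective lengths served as an offset in an alternative. The annotation release is not given in the sources used here. Transcripts were named from RefSeq (GRCh38.p14) or GENCODE tables and summed to 27722 genes; transcripts with no gene name held at most 0.0891% of reads and were left out.

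Rounded gene sums went into edgeR 4.0.16 (quasi-likelihood test, R 4.3.3) over all 6 libraries, with TMM, filterByExpr and a term per group. A gene was called at an adjusted p under 0.05 (Benjamini-Hochberg over 14631 genes). Depth was lowest in PLDLS replicate 2, at 5582078 reads. Replicates of a group differed beyond sampling noise, by a chi-square per gene of 17.3 to 79.4. Deviations of libraries with the same number correlated over 14631 genes at 0.490 (PLASS and PLDLS), 0.542 (PLASS and EV) and 0.427 (PLDLS and EV), so the number also entered as a block. The replicate number matches an experiment number in the deposited library names, while a shared day or culture is stated nowhere in the labels, so the pairing rests on that number and on these correlations. DESeq2 1.42.0 and limma 3.58.1 served as alternatives.

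The 10 genes, the lists and the rules were chosen with earlier results of these data known. Of each list, up to 3 called genes each way were named, or else the one with the smallest p. One called gene of the lists is not reported here. On simulated data with 14390 genes, PLDLS against PLASS recovered 2% of 2-fold and 64% of 4-fold changes without the block, and 69% and 99% with it. The genes changed there lay above a floor of mean level, and recovery for lower genes was not simulated.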

Additional observations from a re-analysis of the deposited data

How the results depend on the processing

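The counts of called genes depended on the replicate block, the tool and the filter. For PLASS against EV, 0 genes were called without the block, 3 with DESeq2, 33 without the filter on low counts, 2 with the block, 24 with the block and DESeq2 and 1 with the block and limma-voom. For PLDLS against PLASS the count went from 0 to 121 with DESeq2, 240 without the filter, 297 with the block, 381 with the block and DESeq2 and 328 with the block and limma-voom. For PLDLS against EV it went from 2 to 267 with DESeq2, 5 with limma-voom, 471 without the filter, 5 with the effective length offset, 621 with the block, 708 with the block and DESeq2 and 732 with the block and limma-voom. Leaving out each library gave 0 to 14 genes for PLDLS against EV without the block. With the block it gave 10 to 559 for PLASS against EV, 94 to 1067 for PLDLS against PLASS and 283 to 2143 for PLDLS against EV. The cause was not tested.

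Of the 117 genes of the lists, PLASS against EV called 0, 4 without the filter, 3 with the block and DESeq2, and 0 to 8 with the block when each library was left out. PLDLS against PLASS called 0, 5 without the filter, 9 with the block, 10 with the block and DESeq2, 10 with the block and limma-voom and 0 to 19 with the block and 1 library left out. PLDLS against EV called 0, 10 with DESeq2, 15 without the filter, 17 with the block, 20 with the block and DESeq2, 19 with the block and limma-voom, 0 to 1 with 1 library left out and 11 to 31 with the block as well. Of the 10 genes, 0 to 1 were called for PLASS against EV with the block and 1 library left out. The replicate comparison called 848 to 3057 genes when each library was left out, and the transcript share test 1 to 93 transcripts, or 2 with at least 10 reads in every library.

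The median log2 ratio of the 10 genes was 2.36 for PLDLS over PLASS (2.01 to 2.45 with 1 library left out) and 2.93 for PLDLS over EV (2.54 to 2.98). The differences given next changed sign, and none of them was called by edgeR with all 6 libraries. In PLASS against EV, leaving out each library, with or without the block, gave log2 -0.18 to 0.19 for PMP22, -0.23 to 0.16 for ESAM, -0.32 to 0.15 for ADAMTS8, -0.39 to 1.87 for SP6 and -0.60 to 1.04 for SH3PXD2B. ADAMTS8 also had 0.00 with limma-voom and 0.01 with the block and limma-voom. In PLDLS against PLASS, KLF10 ranged from -0.27 to 0.57. Between replicate numbers, the ranges were -0.12 to 0.11 for MTURN, -0.08 to 0.06 for NRXN3, -0.23 to 0.18 for ADAMTS8 and -0.29 to 0.04 for GALNT3, and NRXN3 had 0.01 with DESeq2 or its size factors and 0.03 with the length offset. With 2 libraries a group, the few reads of ADAMTS8, GALNT3 and SH3PXD2B in the controls limit the precision of their ratios, and a library left alone in its group was assumed to vary like the others.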
